A study of Oryza sativa with 24 samples.

Results

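The 3 classical silicon transporter genes of rice, LSI1 (LOC_Os02g51110, chromosome 2), LSI2 (LOC_Os03g01700, chromosome 3) and LSI6 (LOC_Os06g12310, chromosome 6), were followed through RNA-seq libraries of flag leaves. They were taken by identifier from a table of 55801 rice genes. The set was chosen by a measured value, the higher FPKM of LSI1 in the edited plants than in the hybrid, so that difference is described here without a test. Tests were kept to differences among the edited plants. Of the 3 genes, LSI1 and LSI6 passed the filter on low values and LSI2 did not.

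Flag leaves had been collected at heading from field-grown plants of 6 groups, with 2 libraries each. CY84 is Chunyou84, an inter-subspecific hybrid of a japonica male-sterile mother (Chunjiang 16 A) and an indica-japonica intermediate father (C84). All other groups are Fix, the same hybrid background with edits of REC8, PAIR1 and OSD1, which turn meiosis into a mitosis-like division, and of MTL, which together give clonal seed. Fix T0 is the founding edited material, kept like CY84 by its roots, and Fix T1, T2, T3 and T4 are its successive diploid generations raised from seed. CY84 and the seed generations thus differ both in the edits and in how the plants were raised, and these cannot be told apart. Whether the 2 libraries of a group come from different plants is not stated, and the spread behind each p may be technical.

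Rice accumulates more silicon than nearly any other crop, and the silica laid down in its leaves and husks stiffens the plant and protects it. In the root, LSI1, a channel of the NIP branch of the aquaporins also called NIP2-1, lets silicic acid into the cells of the exodermis and endodermis. LSI2, an unrelated exporter, passes it on towards the xylem. LSI6, also called NIP2-2 and the closest relative of LSI1 in rice, unloads silicic acid from the xylem in leaf sheaths, leaf blades and nodes, and LSI3, a relative of LSI2, acts with it in the nodes. LSI1 and LSI2 are known above all as root genes, and they also carry arsenite.

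Levels are given in FPKM, a fragment count adjusted for gene length and for the size of the library, and can be compared between genes. Summed FPKM ranged from 680768 to 767790 per library. Absolute depth is unknown. The spacing of low values put the shallowest library at 0.674 of the depth of CY84 replicate 1, the deepest. The 6 leaf markers (small subunits of Rubisco, Rubisco activase, chlorophyll-binding proteins and PSBO) summed to between 33500 and 72400 FPKM. They set leaf apart from root but cannot tell the flag leaf from other leaves. The 7 root markers RCC3, NRT2-1, NAR2-1, IRT1, NRAMP5, CASP1 and YSL15 summed to between 0.300 and 2.63 FPKM. Of these 7, 3 (RCC3, CASP1 and YSL15) were listed at 0 in all 12 libraries, as were 26866 of all 55801 genes. The highest single root marker was IRT1, at up to 2.36 FPKM.

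LSI1 was well expressed in every flag leaf library and was lowest in the hybrid. The CY84 libraries had 18.6 and 19.6 FPKM. The Fix T0 libraries, kept by roots like CY84, had 44.5 and 39.7 FPKM. In the seed generations it was 72.8 and 39.4 FPKM in Fix T1, 40.5 and 57.1 FPKM in Fix T2, 52.9 and 63.0 FPKM in Fix T3, and 33.0 and 32.9 FPKM in Fix T4. All 10 Fix libraries thus stood above both CY84 libraries, and the lowest of them belonged to the latest generation. Across the libraries, between 75.7% and 93.5% of the 18871 tested genes had a lower FPKM than LSI1 in the same library.

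**Figure D1:**
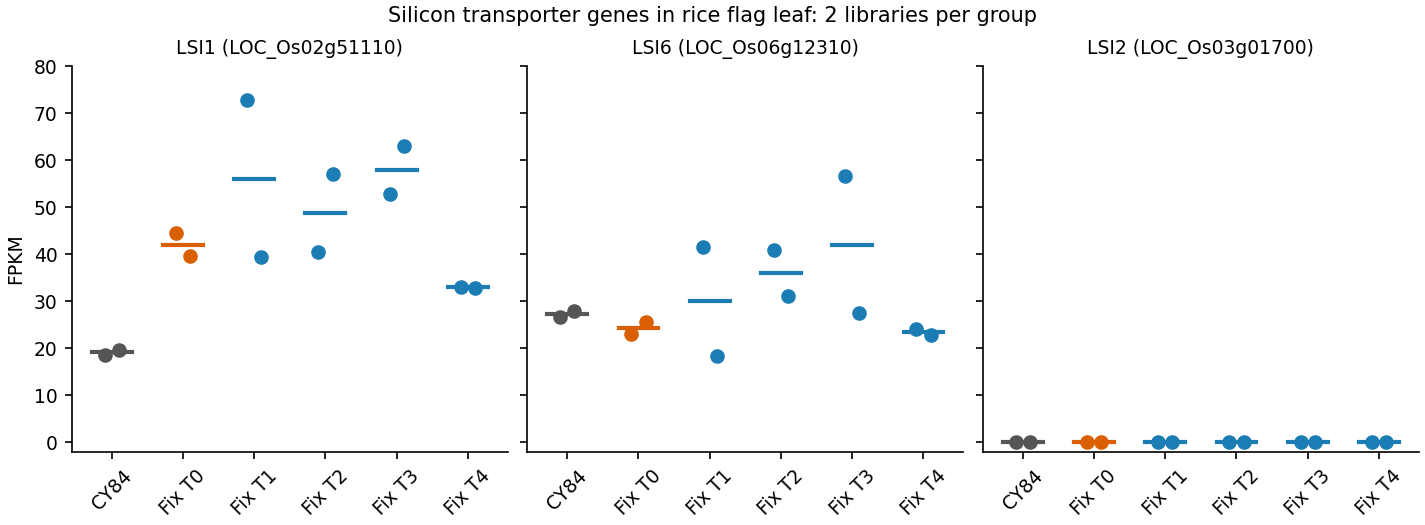
FPKM of LSI1, LSI6 and LSI2 (vertical axis, linear) in each of the 12 libraries, by group; points are libraries and short lines are group means (n = 2). LSI1 runs from 18.6 FPKM in CY84 replicate 1 to 72.8 FPKM in Fix T1 replicate 1, LSI6 shows no such separation of CY84 from Fix, and LSI2 is listed at 0 throughout.

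Ordered by group mean, LSI1 was highest in Fix T3 at 58.0 ± 7.12 FPKM (SD, n = 2), followed by Fix T1 at 56.1 ± 23.7, Fix T2 at 48.8 ± 11.8 and Fix T0 at 42.1 ± 3.40 FPKM. Fix T4 came next at 33.0 ± 0.0985 FPKM, and CY84 was last at 19.1 ± 0.724 FPKM. The libraries of neighbouring groups overlapped from Fix T3 down to Fix T0. They did not overlap between Fix T0 and Fix T4 or between Fix T4 and CY84. The share of all tested genes with such gaps was not counted, so nothing is read from them. The gap to CY84 is also part of the contrast that selected LSI1. The mean of the 10 Fix libraries was 47.6 ± 13.4 FPKM (SD, n = 10), 2.49 times that of CY84. In log2(FPKM + 1), a scale that makes changes of low genes look smaller, the difference was 1.22. LSI1 was selected on this contrast, so nothing is read from it. Among all tested genes, 2.73% had all 10 Fix libraries above both CY84 libraries, and 0.79% did so with a log2 difference of at least 1. In bulk leaf RNA, a change in the number of cells that express a gene and a change in RNA per cell cannot be told apart.

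LSI6, the leaf member of the family, did not separate the hybrid from the edited plants. The CY84 libraries had 26.6 and 28.0 FPKM of LSI6, and those of Fix T0 had 23.1 and 25.7 FPKM. It reached 41.6 and 18.4 FPKM in Fix T1, 41.0 and 31.1 FPKM in Fix T2, 56.6 and 27.4 FPKM in Fix T3, and 24.1 and 22.9 FPKM in Fix T4. Both the highest and the lowest library belonged to seed generations. Of the 10 Fix libraries, 4 were above both CY84 libraries and 5 were below both. The Fix mean was 31.2 ± 11.7 FPKM (SD, n = 10) and the CY84 mean 27.3 ± 0.949 FPKM (SD, n = 2), a log2 difference of 0.11.

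Libraries of the same group differed unevenly in both channels. For LSI6 the higher library was 2.26 times the lower in Fix T1 and 2.06 times in Fix T3, against 1.05 to 1.32 times in the other 4 groups. For LSI1 the Fix T1 pair was the widest at 1.85 times, followed by 1.41 times in Fix T2. In CY84, Fix T1 and Fix T4 the same library was the higher one for both genes, which in Fix T1 was replicate 1. In Fix T0, Fix T2 and Fix T3 the library with more LSI1 had less LSI6. Ordered by mean, LSI6 went from Fix T3 (42.0 FPKM) through Fix T2, Fix T1, CY84 and Fix T0 to Fix T4 (23.5 FPKM), and neighbouring groups overlapped in all but the step from CY84 to Fix T0. The share of all tested genes with such a gap was not counted, so nothing is read from that step.

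LSI2, the exporter that works with LSI1 in roots, was listed at 0 in all 12 libraries. It could not be tested and no fold is given. The same holds for 26866 of the 55801 genes in the table. Its relative LSI3, the silicon exporter of nodes, had 0 and 0.152 FPKM in the CY84 libraries, and the Fix libraries had between 0.135 and 0.811 FPKM, under the filter of at least 1 FPKM in at least 2 libraries. Of these 4 silicon transport genes, the influx channels LSI1 and LSI6 were above 1 FPKM in every library, and the exporters LSI2 and LSI3 were below it in every library.

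The balance of the channels was described for each library. The ratio of LSI1 to LSI6 was 0.699 and 0.702 in CY84, where LSI6 was the more abundant. It was 1.92 and 1.54 in Fix T0. In the seed generations it was 1.75 and 2.14 in Fix T1, 0.987 and 1.84 in Fix T2, 0.936 and 2.30 in Fix T3, and 1.37 and 1.44 in Fix T4. LSI1 exceeded LSI6 in 8 of the 10 Fix libraries, and the ratio stayed above that of both CY84 libraries in all 10. Because LSI1 enters this ratio, it rests on the contrast that selected LSI1 and is given without a test. The share of other gene pairs with such a gap was not counted, so nothing is read from the ratio. Together, LSI1 and LSI6 summed to 45.3 and 47.6 FPKM in the hybrid, against 55.8 to 114 FPKM in the edited plants. LSI1 enters this sum too, and LSI6 alone did not separate the groups, so nothing is read from the sum. The sources used here do not give how fragments matching both of these related genes were counted.

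**Figure D2:**
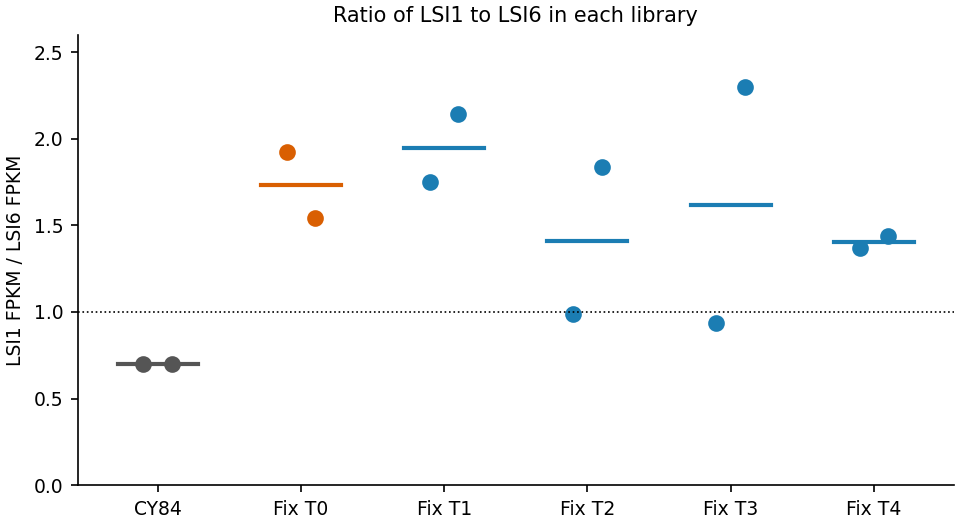
Ratio of LSI1 FPKM to LSI6 FPKM (vertical axis, linear, from 0) in each library by group; points are libraries, short lines group means (n = 2), and the dotted line marks equal levels. Both CY84 libraries lie near 0.70, and the Fix libraries spread from 0.936 to 2.30.

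Within Fix, the relation of LSI1 to LSI6 across libraries was examined. Over the 10 Fix libraries Pearson's r of log2(FPKM + 1) was 0.534 (permutation p = 0.119) and Spearman's rho was 0.709 (permutation p = 0.0288). It was 1 relation computed, with both tests two-sided and neither p adjusted for the other test. Without the 2 libraries farthest from the LSI1 median, r was 0.567 over 8 libraries. The linear relation thus did not pass. Libraries of a generation share their source, so the 10 points are not fully independent, but the permutations treated them as if they were. The unadjusted p of the rank relation is therefore not read as passing.

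Whether the level of either channel moved between clonal generations was tested by comparing the 5 Fix generations with each other and with Fix T0. Neither gene passed any of these tests. An F test of any difference among the generations gave a limma adjusted p = 0.313 for LSI1 and 0.472 for LSI6, with unadjusted p of 0.117 and 0.281. In the same test 1.2% of all tested genes passed. With Fix T1 and T2, 4 libraries in all, left out, an alternative chosen after seeing the data, LSI1 did pass over Fix T0, T3 and T4 (limma adjusted p = 0.0340), while LSI6 did not (0.147). In that setting 2830 genes passed in place of 227. The LSI1 adjusted p ranged from 0.0340 to 0.590 over 18 alternatives and was under the threshold of 0.05 in that 1 alone.

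The mean of the seed generations was set against Fix T0 to compare seed-raised with root-kept edited plants. LSI1 averaged 49.0 ± 14.8 FPKM in the seed generations (SD, n = 8) and 42.1 ± 3.40 FPKM in Fix T0 (SD, n = 2). The log2 difference was 0.16 (SE 0.23, 95% interval -0.34 to 0.66, limma adjusted p = 0.841). LSI6 averaged 32.9 ± 12.7 FPKM against 24.4 ± 1.82 FPKM, a log2 difference of 0.33 (SE 0.30, 95% interval -0.32 to 0.99, limma adjusted p = 0.740). In this comparison 0.207% of tested genes passed. These intervals do not show equality: they leave room for a change of LSI6 close to 1 log2 unit.

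Taken singly, the seed generations had estimates of either sign, and none passed. The LSI1 difference from Fix T0 was 0.34 in Fix T1, 0.19 in Fix T2 and 0.45 in Fix T3, but -0.34 in Fix T4, each with an SE of 0.29. For LSI6 it was 0.18, 0.53 and 0.67 in Fix T1, T2 and T3 and -0.052 in Fix T4, each with an SE of 0.38. The limma adjusted p lay between 0.443 and 0.981 for LSI1 and between 0.386 and 0.998 for LSI6. All 4 comparisons share the Fix T0 libraries. Among all tested genes, 0.0795%, 0.0901%, 0.291% and 1.05% passed in Fix T1, T2, T3 and T4. The median log2 difference of all genes was -0.059, -0.28, -0.19 and 0.16 in the same order, and on rescaling it moved by 0.31 in Fix T2, 0.20 in Fix T3 and -0.17 in Fix T4. In rescaled libraries, the LSI1 differences in Fix T2, T3 and T4 were 0.59, 0.70 and -0.54, and those of LSI6 were 0.93, 0.92 and -0.25. The Fix T1 and Fix T2 values of LSI1 each hung on 1 library: leaving out replicate 1 of Fix T1 gave -0.092, and leaving out replicate 2 of Fix T2 gave -0.053. For LSI6, leaving out replicate 1 of Fix T1 gave -0.39. The LSI6 difference in Fix T3 was 0.16 without Fix T3 replicate 1 and 1.18 without Fix T3 replicate 2. That in Fix T4 was 0.021 without Fix T0 replicate 2.

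**Figure D3:**
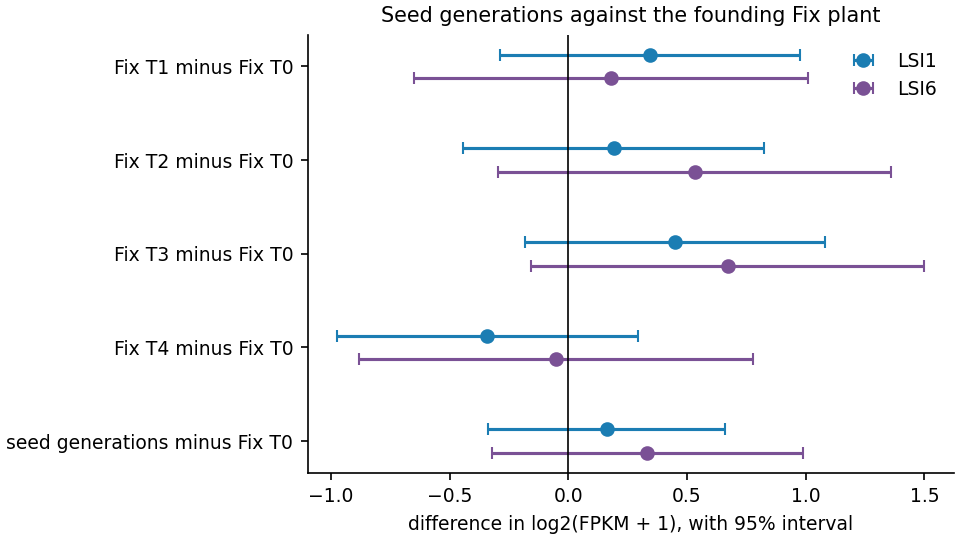
Difference in log2(FPKM + 1) of LSI1 and LSI6 between each seed generation, or their mean, and Fix T0 (horizontal axis); points are limma estimates and bars are 95% intervals. All 10 intervals include 0, and for LSI1 only the Fix T4 estimate (-0.34) lies below 0.

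Genes of related transport made up a list of 9: LSI3, further NIP channels, the boron exporter BOR1 and ABCC1, the vacuolar transporter that stores arsenic. Of these, 5 passed the filter on low values and 0 passed any test among the Fix generations by limma. Unadjusted p values under 0.05 were those of ABCC1 in the F test (0.0180) and in Fix T2 (0.00967), of BOR1 in the seed comparison (0.0113), Fix T3 (0.0313) and Fix T4 (0.0168), and of NIP1-1 in Fix T3 (0.0473). Such values were common: of all tested genes, 22.3% had one in the F test, 8.64% in the seed comparison, 19% in Fix T2, 16.4% in Fix T3 and 7.96% in Fix T4. NIP3-2 and NIP3-3 were listed at 0 in every library. For NIP1-3 the CY84 mean was 9.31 ± 0.669 FPKM (SD, n = 2) and the Fix mean 8.73 ± 2.54 FPKM (SD, n = 10). For NIP3-1, a boron channel, they were 4.99 ± 1.14 and 4.92 ± 1.78 FPKM. The CY84 libraries had 3.28 and 2.81 FPKM of BOR1, those of Fix T0 had 3.15 and 2.84 FPKM, and those of the seed generations had 0.941 to 2.23 FPKM. All 8 seed libraries thus lay below both Fix T0 libraries for BOR1, with a log2 difference of -0.74 that did not pass (SE 0.25, limma adjusted p = 0.427). Of all tested genes, 2.11% had their 8 seed libraries below both Fix T0 libraries in the same way.

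Against CY84, the Fix mean of this list had a median log2 difference of -0.13, the same as the median of all tested genes (-0.13). Rescaling the libraries moved that median of all genes by 0.13. In the list 0 of 5 tested genes had all Fix libraries on one side of CY84. Of 14 tested plasma membrane (PIP) and vacuolar (TIP) aquaporins, PIP1-3 and TIP2-1 had all 10 Fix libraries above both CY84 libraries and TIP1-2 had all 10 below. Over all genes, 2.73% lay wholly above and 4.71% wholly below. The PIP1-3 mean was 344 ± 11.1 FPKM for the hybrid (SD, n = 2) and 621 ± 138 FPKM for the edited plants (SD, n = 10), and the TIP1-2 means were 578 ± 7.08 and 398 ± 71.4 FPKM. TIP2-1 was low, with at most 0.313 FPKM in the hybrid, and its lowest Fix library also rounded to 0.313 FPKM. It passed the filter only through Fix libraries, so its place among the genes with all Fix libraries above is read as no support. The median log2 difference of the 14 aquaporins was -0.04. By limma 0 of the 14 passed any test among the Fix generations. The unadjusted F test p was 0.0103 for PIP1-2, 0.0441 for PIP1-3, 0.00963 for PIP2-5 and 0.0248 for PIP2-6, which is 4 of 14 genes against 22.3% of all tested genes. In the other comparisons PIP1-2, PIP1-3, PIP2-5 and TIP4-1 had at least 1 unadjusted p under 0.05. The share of all tested genes with at least 1 such p was not counted, so nothing is read from this. In Fix T1 alone, 5.04% of all tested genes had one. Of the 6 leaf markers 0 passed any of these tests, and Rubisco activase in Fix T4 was the one with an unadjusted p under 0.05. Of the root markers, IRT1 alone passed the filter on low values. It did so only through 4 seed libraries, at 1.19 to 2.36 FPKM, and no test of it is given.

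**Figure D4:**
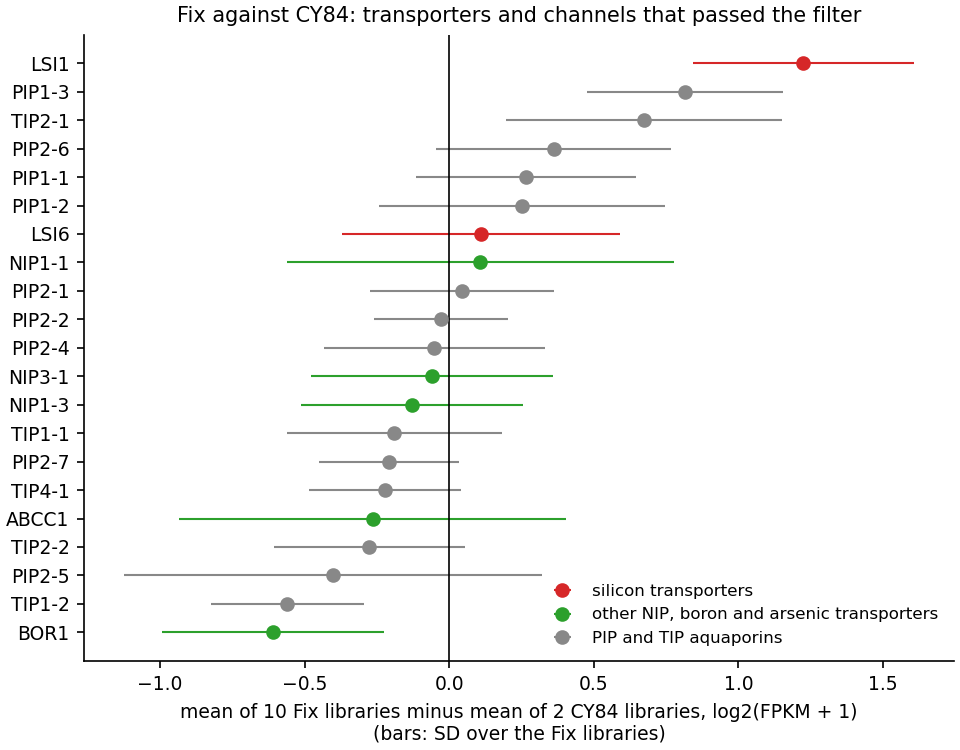
Difference between the mean of the 10 Fix and the mean of the 2 CY84 libraries in log2(FPKM + 1) (horizontal axis) for the silicon transporters, related carriers and aquaporins that passed the filter; bars are the SD over the Fix libraries. LSI1 stands at 1.22, LSI6 at 0.11, PIP1-3 at 0.82 and BOR1 at -0.61.

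The genes whose level followed LSI1 most closely over the 12 libraries were LOC_Os01g18860 and LOC_Os06g38350, with Pearson's r of 0.939 and 0.913. The sources used here pair neither identifier with a name. LOC_Os01g18860 had 14.1 and 17.5 FPKM in the CY84 libraries, and from 23.6 to 60.1 FPKM in those of Fix. Over the 10 Fix libraries alone these r were 0.825 and 0.766, lower than with CY84 included. The choice of nearest genes thus rests in part on the contrast that selected LSI1. No ranking was made over Fix alone. Among the listed genes, the nearest to LSI1 were PIP1-3 (0.773) and PIP2-6 (0.767). Over Fix alone their r was 0.471 and 0.874. The CY84 libraries had 7.86 and 8.92 FPKM of PIP2-6, and those of Fix had 6.10 to 18.8 FPKM.

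LSI6 had other neighbours in pattern. The closest were LOC_Os09g25470 (r = 0.911) and LOC_Os01g09320 (r = 0.886), and among the listed genes PSBO, a subunit of photosystem II (0.680), and RBCS at LOC_Os12g17600, a small subunit of Rubisco (0.649). The r of LSI6 with LSI1 was 0.392. These r, over 12 libraries that share their groups, are descriptions. The summed leaf markers of the Fix T2 pair were 68700 and 72400 FPKM, with an LSI6 mean of 36.0 FPKM. Fix T4 had sums of 33500 and 44800 FPKM and an LSI6 mean of 23.5 FPKM. The highest LSI6 mean, 42.0 FPKM, belonged to Fix T3, whose leaf marker sums were 44900 and 63000 FPKM. Fix T0 paired sums of 46700 and 55100 FPKM with a lower LSI6 mean of 24.4 FPKM. For Fix T1 the sums were 40200 and 46700 FPKM and the LSI6 mean 30.0 FPKM. The hybrid had sums of 44800 and 46500 FPKM and an LSI6 mean of 27.3 FPKM. The part of leaf markers in the LSI6 level was not tested. The summed root markers were 1.09 and 1.27 FPKM in the hybrid and 0.300 and 0.864 FPKM in Fix T0. They were 0.952 and 1.24 FPKM in Fix T1, 1.27 and 2.34 FPKM in Fix T2, 1.17 and 2.63 FPKM in Fix T3 and 0.520 and 1.55 FPKM in Fix T4, with each pair given from low to high. The sum was thus lowest in a Fix T0 library, where LSI1 was above the hybrid. It was highest in Fix T3 replicate 1, which had 2.36 FPKM of IRT1 and 52.9 FPKM of LSI1. Fix T3 replicate 2 had 0.900 FPKM of IRT1 and 63.0 FPKM of LSI1. In Fix T0, T1, T2 and T3 the library with the higher sum had less LSI1, and in CY84 and Fix T4 it had more. The part of root markers in the LSI1 level was not tested.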

How the data were processed

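RNA-seq values of 12 flag leaf libraries were used, 2 in each of 6 groups. The authors deposited FPKM per gene with 1 column per library, per the file headers. The submitters' processing notes name Trimmomatic 0.39, HISAT2 2.1.0, StringTie 1.3.4d, featureCounts 1.6.4 and DESeq2 1.30.1 without saying which step each served, and the genome build is not stated in the sources used here. The table's other 20 columns carry no name and were left aside. The series' 12 bisulfite samples were not analysed here.

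Genes with at least 1 FPKM in at least 2 libraries (18871) were tested as log2(FPKM + 1). The limma 3.58.1 model (R 4.3.3) had 1 mean for each group, a trended prior and 6 residual degrees of freedom. The threshold was a Benjamini-Hochberg adjusted p of 0.05 over all tested genes. Correlations used SciPy 1.17.1. The fit was also run on simulated data with planted changes larger than any estimated for LSI1 and LSI6 among Fix groups. That run does not show how small a change of these genes could be found. Alternatives were a pseudocount of 0.1, no filter, median-of-ratios scaling, a replicate block, Fix libraries only and leaving out each library.

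Members, lists and tests were chosen with earlier results of these data known. The named genes are the members, the listed genes and, per tested member, the 2 genes of all and of the lists with the highest r. The table holds identifiers only. Names were paired by hand from published nomenclature and compared with the RefSeq table of assembly ASM3414082v1. Of 42 names, 33 lay on the identifier's chromosome at a fitting place, 8 (LSI3, NIP1-3, NIP1-4, NIP3-2, BOR1, ABCC1, RCC3, PSBO) were not in that table and were used unchecked, and 1, NIP1-2, lay elsewhere and was dropped.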

Additional observations from a re-analysis of the deposited data

How the results depend on the processing

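Of 105 alternative values each in the tests among Fix generations, LSI1 passed in 1 and LSI6 in 0. The one that passed was the LSI1 F test with Fix T1 and T2 left out (adjusted p = 0.0340). LSI2 gave no value in any setting. Leaving out single libraries, the F test adjusted p ran from 0.0691 to 0.590 for LSI1 and from 0.165 to 0.664 for LSI6, and the seed difference from 0.05 to 0.27 and from 0.19 to 0.48. The difference from Fix T0 changed sign for LSI1 in Fix T1 (-0.092 to 0.78) and Fix T2 (-0.053 to 0.43) and for LSI6 in Fix T1 (-0.39 to 0.75) and Fix T4 (-0.13 to 0.021). Fix minus CY84 lay between 1.15 and 1.39 for LSI1 and between 0.0075 and 0.28 for LSI6 over 14 alternatives each. LSI1 was selected on this contrast, so its narrow range is no support for the difference.

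Counts over all genes moved more, and the cause was not tested. The F test gave 227 genes, 114 with a pseudocount of 0.1, 105 with no filter, 138 on rescaling, 108 in Fix libraries only, 2830 without Fix T1 and T2 and 53 to 2209 without single libraries. The seed comparison gave 39 (27 higher, 12 lower), 65 on rescaling (52 and 13), 21 in Fix libraries only and 9 to 106. The split turned with no filter (11 and 22) and without Fix T1 replicate 2 (47 and 59). Fix T1 gave 15 (8 and 7), 8 with the pseudocount and 6 to 152, the last without Fix T1 replicate 2 (18 and 134). Fix T2 gave 17 (4 and 13), 11 with the pseudocount, 9 in Fix libraries only and 3 to 1066, and rescaling made the split 10 and 10. Fix T3 gave 55 (41 and 14), 152 on rescaling (128 and 24), 1628 without Fix T1 and T2 (457 and 1171) and 6 to 335, the last without Fix T1 replicate 1 (142 and 193). Fix T4 gave 199, 72 with the pseudocount, 112 with no filter, 122 in Fix libraries only, 420 without Fix T1 and T2 and 30 to 314.

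Replicate numbers were not taken to pair libraries. After subtraction of group means, equally numbered libraries correlated above 0.1 in 2 of 15 pairs of groups, with r from -0.304 to 0.193. Whether libraries with unlike numbers shared a batch was not tested. With a replicate block 139 genes passed the F test and 11 passed in Fix T2, and the block adjusted p of that test was 0.388 for LSI1 and 0.435 for LSI6. Depth is unknown, so no limit can be set on the level of LSI2 behind its listed 0.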

Other observations

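The genes next to the silicon transporters by identifier order were also read out. They were chosen after values had been seen, as the nearest tested identifier on each side, and carry no name in the sources used here. Beside LSI1, LOC_Os02g51100 was at 34.9 and 35.9 FPKM in CY84 and between 14.5 and 35.2 FPKM in Fix, and LOC_Os02g51130 was at 2.67 to 3.17 FPKM in CY84 and 1.81 to 3.04 FPKM in Fix.

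Beside LSI6, whose level did not separate CY84 from Fix, LOC_Os06g12320 was at 13.8 and 22.9 FPKM in CY84 and between 2.23 and 6.19 FPKM in Fix. All 10 Fix libraries lay below both CY84 libraries, as for 4.71% of all tested genes. On the other side LOC_Os06g12260 overlapped, with 12 to 13.1 FPKM in CY84 and 7.88 to 16.5 FPKM in Fix. The neighbours of LSI2 were expressed at low levels, LOC_Os03g01660 between 2.50 and 4.26 FPKM and LOC_Os03g01710 between 0.113 and 2.19 FPKM, while LSI2 itself was listed at 0.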
